A study of Brassica napus with 36 samples.

Results

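HX58 is an early-maturing semi-winter variety of rapeseed (Brassica napus), and HX58_FA and HX58_MA are its acclimated freezing group and its control. The 6 samples described here were taken from the 36 of the series by their labels, 3 of HX58_FA and 3 of HX58_MA. HX58_FA plants had 14 days of cold acclimation at 4° followed by 12 h at -4°, and HX58_MA is labelled as control. The study sequenced leaf RNA of HX58 and of a companion variety, HX17, under chilling and freezing with and without acclimation. For comparison HX58_CA had the same 14 days at 4° and then 12 h at 4°, HX58_FB went to -4° and HX58_CB to 4° without acclimation, HX58_MB is a further control, and HX17_FA and HX17_MA are the same conditions in HX17. Each of these groups held 3 samples, and nothing in the labels says that the 3 came from separate plants. By the study's methods the plants grew in incubators with warm days and cooler nights, the acclimated plants spent the last 12 h mostly in the dark, and the third leaf from the top was taken in the morning, shortly after the lights came on. The sources used here do not state the age or the hour of collection of the control plants separately, so these cannot be told apart from the treatment.

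Many temperate plants survive frost better after some days at low temperatures above freezing. In Arabidopsis the cold is read within minutes by calcium signals and by the transcription factors CBF1 to CBF3 (DREB1B, DREB1C and DREB1A), which switch on the cold-regulated (COR) genes, dehydrins and enzymes that make protective sugars. Leaf starch is broken down, membranes are remodelled, and growth and photosynthesis slow. Rapeseed carries an A and a C subgenome, so that most Arabidopsis genes have several rapeseed loci. A symbol below is the name of the best protein match that the deposited annotation gives for a locus, from Arabidopsis unless another species is named, and loci with near-identical sequence may share reads, so that their single values are less certain than their sum.

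The 6 samples held between 3.22e+07 and 5.53e+07 counts over 106340 annotated genes, with medians of 5.28e+07 in HX58_FA and 4.69e+07 in HX58_MA. Log2 CPM (counts scaled to a common library size by TMM) correlated between replicates at r = 0.987 to 0.991 in HX58_FA and at 0.972 to 0.981 in HX58_MA. HX58_MA replicate 2 stood apart from the other HX58_MA samples in genes of the leaf surface and of growth: aquaporin loci took 0.536% of its counts against 1.02% and 0.843% in replicates 1 and 3, and cell wall loosening loci 0.329% against 0.673% and 0.796%. In the further control, HX58_MB, these shares were 0.422 to 0.447% and 0.275 to 0.283%, nearer to replicate 2 than to replicates 1 and 3. Results on these genes are therefore given with and without HX58_MA replicate 2. Leaf mesophyll markers were abundant, as in leaf tissue, and took 10.4 to 10.9% of the counts in HX58_FA and 7.39 to 8.46% in HX58_MA. Of their 39 tested loci 4 were higher and 10 lower, and their median log2 fold change was -0.80. The larger share in HX58_FA thus does not describe most of these loci. The markers include the abundant LHCB1.3 loci, whose gains in CPM are given below. Of marker loci of other tissues, 4 seed loci and 13 shoot meristem loci did not pass the filter on low counts, root markers took at most 0.0153% (17 tested, 1 higher and 5 lower), flower and pollen markers at most 0.00254% (7 tested, 2 lower and 0 higher) and guard cell markers at most 0.00386% (10 tested, 0 called in either direction). Among 43 phloem companion cell markers 2 were higher and 0 lower. The counts of 0 are from edgeR. At an unadjusted p under 0.05, 0 flower and pollen loci were higher, 0 guard cell loci were higher and 1 lower, and 6 phloem loci were lower, and DESeq2 called 0, 0, 0 and 1 of these.

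HX58_FA and HX58_MA differed in 9010 of 54030 tested loci, which is 16.7%. In HX58_FA 5088 loci (9.42%) were higher and 3922 (7.26%) were lower. The call needed at least a 2-fold difference together with an adjusted p below 0.005 in edgeR's quasi-likelihood test with Benjamini-Hochberg adjustment, and every adjusted p below comes from this test. The rises were larger than the falls: the median log2 fold change was 2.26 in the loci called higher and -1.93 in those called lower, 1749 loci rose by more than 3 on the log2 scale, and 786 loci had a value below -3. The median over all tested loci was 0.04, so the scaling put the bulk of the loci at no change. Without HX58_FA replicate 1, 2 or 3 the count of called loci was 5718, 5597 and 5157, and without HX58_MA replicate 1, 2 or 3 it was 6492, 8740 and 8505.

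The A and C subgenomes changed to a like extent. Of 24006 tested BnaA loci 10.05% were higher and 6.79% lower, and of 26315 BnaC loci 9.43% were higher and 6.90% lower. Loci that the authors added as new transcripts went the other way in number: of 3585 tested, 183 (5.10%) were higher and 468 (13.1%) lower, with a median log2 fold change of -0.40. The difference between these classes was not tested.

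A set of loci was not detected in the controls and clearly present after freezing. Of the 5088 loci called higher 150 had 0 counts in all 3 HX58_MA samples, and of the 3922 called lower 38 had 0 counts in all 3 HX58_FA samples. Such loci passed the filter on low counts only through the group that held counts. Their direction was therefore fixed by the filter, and these numbers are descriptions. XTH18 BnaC07g42520D (chromosome C07, 41933748 to 41934894), a xyloglucan endotransglucosylase that cuts and rejoins wall polymers, stood at 145, 151 and 128 CPM in HX58_FA replicates 1, 2 and 3 and at 0 in every HX58_MA sample. It was at least 5980.5-fold higher, counted against 3 counts over the control group. BPS1 BnaA09g54170D, a match to the Arabidopsis protein BYPASS1, stood at 121, 168 and 151 CPM against 0.0217, 0.0216 and 0, the controls holding 2 counts in all, and its ratio was 9202 (95% counting interval 2547 to 75988), an interval that covers counting error only. Both loci thus separated the groups by several orders of magnitude.

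At the other end, XTH6 BnaA06g24680D, another enzyme of the same wall family, fell from 187, 39.3 and 205 CPM in HX58_MA to 0.196, 0.305 and 1.39 in HX58_FA, a log2 fold change of -7.87 ± 0.89 (SE, adjusted p = 1.75e-04). HX58_MA replicate 2 was far below the other controls at this locus, and still far above every freezing sample. ARR9 BnaA09g36380D, a repressor of cytokinin signalling, stood at 0.714, 1.28 and 0.885 CPM in HX58_FA and 47.4, 60.4 and 43.7 in HX58_MA (-5.72 ± 0.27, adjusted p = 1.85e-06). BRG3 BnaA03g32530D, a RING-finger ubiquitin ligase, went from 35.4, 36.4 and 31.3 CPM to 0.929, 0.305 and 0.774 (-5.68 ± 0.36, adjusted p = 6.11e-06). All 3 loci were more than 10 times lower in every freezing sample than in any control.

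**Figure D1:**
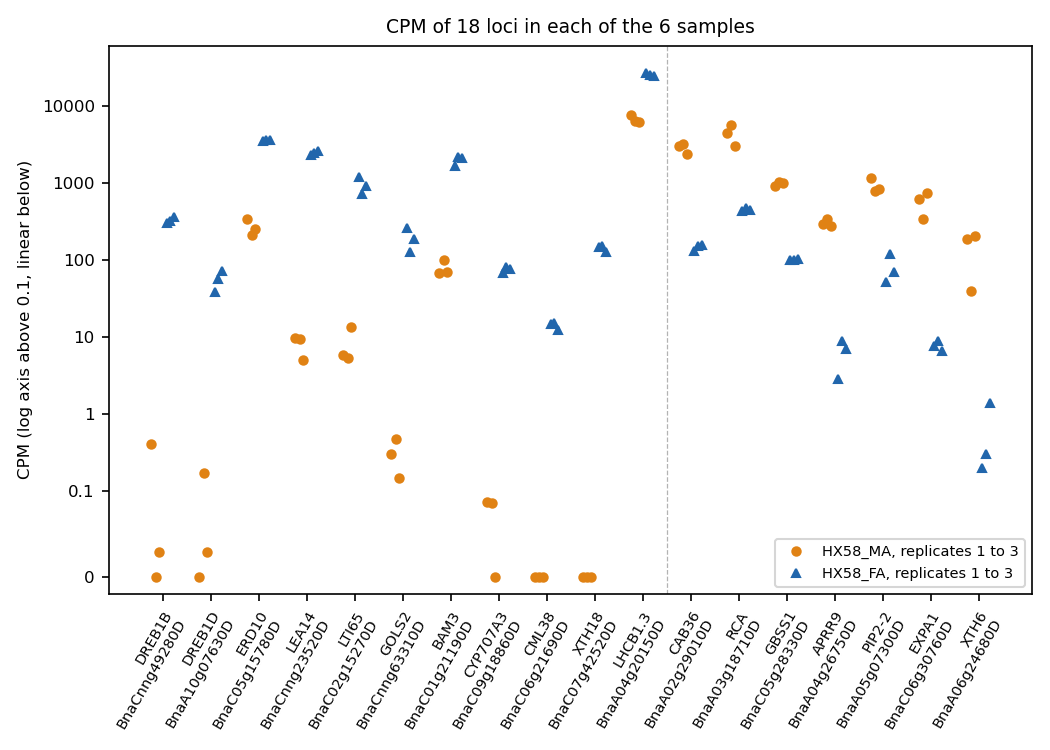
CPM of 18 loci (symlog axis, log above 0.1) in the 3 HX58_MA samples (circles) and the 3 HX58_FA samples (triangles). Loci left of the dashed line rose and those right of it fell, and 2 of the loci that rose (CML38 and XTH18) were at 0 in every control. The groups do not overlap, which held for all 5088 loci called higher and all 3922 called lower.

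Photosynthesis genes led the changes in read number. LHCB1.3 BnaA04g20150D, a light-harvesting protein of photosystem II, rose from 7624, 6363 and 6129 CPM to 26361, 24772 and 24200.2. ERD10 BnaC05g15780D, a dehydrin, LEA14 BnaCnng23520D and BAM3 BnaA03g42940D, a starch-degrading beta-amylase, also ranked among the 10 loci with the largest gains in mean CPM. On the falling side the leading losses were of CAB36 and of rubisco activase (RCA) loci, whose values follow below with their lists.

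Over a large share of loci the regulators of the CBF pathway rose. Of 69 tested loci 37 were higher, 2 lower and 30 not called, against 9.42% and 7.26% of all tested loci, and the median log2 fold change of the list was 1.56 beside 0.04 over all loci. DREB1B (CBF1) BnaCnng49280D stood at 300.2, 319 and 362 CPM in HX58_FA and at 0.413, 0 and 0.0295 in HX58_MA, a log2 fold change of 11.01 ± 0.74 (adjusted p = 8.38e-06). Its neighbour in name, BnaA08g30910D (chromosome A08_random, 1768075 to 1768896), was at 19.2, 24.2 and 24.9 CPM against 0 in all controls, at least 949-fold higher. Counts of loci per name, here and below, were picked with the values in view and are descriptions. Some of them include loci at 0 in every control, whose direction was fixed by the filter on low counts. All 5 DREB1B loci, both DREB1A and both DREB1C loci, and all 3 tested DREB1F loci were called higher.

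DREB1D (CBF4), which in Arabidopsis answers drought more than cold, was also high after freezing. Its locus BnaA10g07630D stood at 37.7, 56.3 and 72.3 CPM in HX58_FA and 0, 0.173 and 0.0295 in HX58_MA (9.56 ± 0.60, adjusted p = 5.95e-06), and BnaC09g28190D at 15.4, 15.7 and 22.4 CPM against 0, at least 738-fold higher. Summed over loci and scaled for gene length, DREB1B reached 747, 772 and 863 FPKM (fragments scaled for gene length and sequencing depth) in the freezing samples, DREB1C 519.8, 407 and 483 and DREB1A 22.6, 20.6 and 23.8. In these sums DREB1B was above DREB1C, and DREB1A lay far below both, in every freezing sample.

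The zinc finger factors ZAT10 and ZAT12 and the heat shock factor HSFC1, which act beside CBF on COR genes in Arabidopsis, rose at every tested locus: 5 of 5, 5 of 5 and 4 of 4. ZAT12 loci summed to 1232, 1305 and 1177 FPKM in HX58_FA and 28.5, 34.97 and 14.9 in HX58_MA, the highest level of these regulators. HSFC1 BnaC03g43990D stood at 18.8, 15.04 and 16.5 CPM against 0.0652, 0.303 and 0 (6.96 ± 0.58, adjusted p = 2.80e-05). The 2 loci that fell match the ICE factors upstream of CBF: SCRM2 (ICE2) BnaA08g24520D went from 12.2, 14.5 and 9.63 CPM to 3.96, 2.42 and 4.49 (-1.74 ± 0.27, adjusted p = 0.0011), and of 3 SCRM (ICE1) loci 1 was lower. The CBF count of lower loci was 0, 1, 1, 1 and 1 without HX58_FA replicate 1, 2 and 3 and HX58_MA replicate 2 and 3 in turn.

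Dehydrins and other LEA proteins rose at most of their tested loci. These proteins keep membranes and enzymes intact when water leaves the cell. Of 14 tested loci 9 were higher and 0 lower in edgeR, with 0 lower at an unadjusted p under 0.05 and 0 in DESeq2, and the list took 1.23 to 1.26% of all counts in HX58_FA against 0.0554 to 0.0760% in HX58_MA. Its median log2 fold change was 3.80, or 3.68 with loci of 0 counts set to their bound. In no other of the 41 lists did that step change the median by 0.01 or more.

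ERD10 BnaC05g15780D stood at 3433, 3617 and 3556 CPM in HX58_FA and 339, 211 and 254 in HX58_MA (3.72 ± 0.22, adjusted p = 4.22e-06). LEA14 BnaCnng23520D, a desiccation protein of the LEA family, rose from 9.81, 9.26 and 5.01 CPM to 2289, 2406 and 2542 (8.23 ± 0.33, adjusted p = 9.82e-07), a 299.8-fold change. The freezing values of both lay within a narrow band and far above each control. Per length, ERD10 loci summed to 8429, 8320.4 and 8391 FPKM, ERD14 loci to 6103, 6028 and 6295 and LEA14 loci to 5448, 5584 and 5959.98 in HX58_FA, so the order of the 3 names was the same in each freezing sample.

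COR and KIN proteins rose at part of their loci. Of 24 tested loci 11 were higher, 1 was lower and 12 were not called, with a median of 1.41. LTI65 BnaC02g15270D, a drought and cold protein controlled by abscisic acid in Arabidopsis, stood at 1178, 708 and 898 CPM against 5.78, 5.37 and 13.5 (6.83 ± 0.45, adjusted p = 7.13e-06). COR15B, which protects chloroplast membranes during freezing, was chosen after its values were seen: BnaC03g23750D was at 403, 375 and 376 CPM against 136, 102 and 102 (1.76 ± 0.17, adjusted p = 6.98e-05), and all 4 tested COR15B loci were called higher. COR413IM2 BnaA09g26860D, a protein of the inner chloroplast envelope, was the locus that fell, from 242, 269 and 229 CPM to 118, 133 and 105 (-1.06 ± 0.16, adjusted p = 9.61e-04). The COR and KIN count of lower loci was 0 each time without HX58_FA replicate 1 and 3 and HX58_MA replicate 2 in turn.

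Enzymes of raffinose family oligosaccharides, sugars that stabilise membranes, rose at 10 of 15 tested loci. 0 loci fell in edgeR, 0 at an unadjusted p under 0.05 and 0 in DESeq2. The median log2 fold change was 3.16. The raffinose count of higher loci was 6 without HX58_MA replicate 1. GOLS2 BnaCnng63310D, a galactinol synthase of the entry step, stood at 258, 127 and 186 CPM in HX58_FA and 0.304, 0.476 and 0.147 in HX58_MA, a 590.1-fold rise (9.20 ± 0.45, adjusted p = 1.93e-06). GOLS3 BnaC08g50010D, which encodes the same activity, rose from 30.5, 41.8 and 30.2 CPM to 584, 574 and 629 (4.12 ± 0.20, adjusted p = 1.87e-06). GOLS2 replicates spread more widely than GOLS3 replicates in HX58_FA, and neither locus overlapped between groups, as was so for every called locus.

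Part of the starch breakdown loci rose, and loci of granule-bound starch synthase fell. Of 81 tested loci for starch breakdown 32 were higher, 1 lower and 48 not called (median 0.72), and their share of counts was 1.02 to 1.15% in HX58_FA and 0.135 to 0.186% in HX58_MA. BAM3, the main beta-amylase of leaf starch in Arabidopsis, led the list: BnaC01g21190D (chromosome C01, 14819094 to 14820988) went from 66.5, 97.7 and 69.8 CPM to 1647, 2119 and 2077 (4.64 ± 0.23, adjusted p = 2.11e-06) and BnaA03g42940D from 169, 238 and 106 to 2021, 2439 and 2469 (3.76 ± 0.30, adjusted p = 2.17e-05). All 4 tested BAM3 loci rose, and their FPKM sums were 3785, 4515 and 4547 in HX58_FA and 213, 319 and 182 in HX58_MA. PHS1 BnaA02g29830D, a starch phosphorylase of the plastid, stood at 47.9, 46.7 and 39.1 CPM against 0.783, 0.930 and 1.74 (5.30 ± 0.31, adjusted p = 4.16e-06).

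Genes of the steps before and after BAM3 also rose. GWD1 and GWD3, the kinases that phosphorylate starch and open it to attack, were each higher at 4 of 5 tested loci, and DPE2, which handles the maltose released, at 2 of 2. BAM6 BnaA05g10780D was the locus that fell, from 17.7, 24.9 and 19.9 CPM to 9.57, 9.17 and 5.97 (-1.34 ± 0.23, adjusted p = 0.0018). The starch breakdown count of lower loci was 0, 0, 0 and 3 without HX58_FA replicate 1, 2 and 3 and HX58_MA replicate 1 in turn. Among 30 tested loci for starch synthesis 3 were higher and 4 lower, with a median of 0.07, and 3 of the 4 were the GBSS1 loci, which make amylose. The starch synthesis count of higher loci was 1 each time without HX58_FA replicate 1, 2 and 3 in turn. GBSS1 BnaC05g28330D was at 100.2, 97.9 and 103 CPM in HX58_FA and 894, 1015 and 981 in HX58_MA (-3.26 ± 0.16, adjusted p = 1.93e-06).

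Sugar handling was mixed. Of the tested loci for sucrose metabolism and sugar transport 23 were higher, 13 lower and 89 not called, with a median of 0.46. The sucrose and sugar transport count of lower loci was 7 without HX58_FA replicate 2. ERD6 BnaC05g06500D, a sugar transporter induced by dehydration, rose from 2.22, 1.45 and 2.74 CPM to 83.5, 81.0 and 90.3 (5.32 ± 0.26, adjusted p = 1.90e-06). All 3 SPS1 loci, for sucrose phosphate synthase, rose, with log2 fold changes of 1.22 to 2.96, while SPS4 BnaA02g23460D, another sucrose phosphate synthase and the list's locus with the highest CPM, stood at 360.2, 443 and 374 CPM against 339, 619 and 324 and was not called (adjusted p = 0.74). SWEET11, which exports sucrose towards the phloem, fell at 5 of 5 loci, from sums of 246, 169 and 205 FPKM in HX58_MA to 25.9, 39.0 and 22.5 in HX58_FA.

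Proline and polyamine metabolism had 13 of 41 tested loci higher and 3 lower, with a median of 0.55. POX1, proline dehydrogenase, which breaks proline down, rose at 4 of 4 loci: BnaC07g26120D stood at 14.4, 17.4 and 20.7 CPM against 0.217, 0.389 and 0.177 (6.02 ± 0.32, adjusted p = 2.64e-06). SAMDC3 BnaA03g05780D, which feeds polyamine synthesis, rose from 0, 0.454 and 0.206 CPM to 13.6, 17.8 and 16.6 (6.15 ± 0.64, adjusted p = 1.06e-04). P5CSB BnaA04g03460D, an enzyme that makes proline, fell from 50.5, 41.9 and 47.1 CPM to 14.4, 14.2 and 16.2 (-1.64 ± 0.16, adjusted p = 6.26e-05). The whole list took 0.258 to 0.261% of counts in HX58_FA and 0.0905 to 0.0979% in HX58_MA, and the loci given here with CPM held little of this. These single loci therefore do not show the balance of proline synthesis and breakdown.

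**Figure D2:**
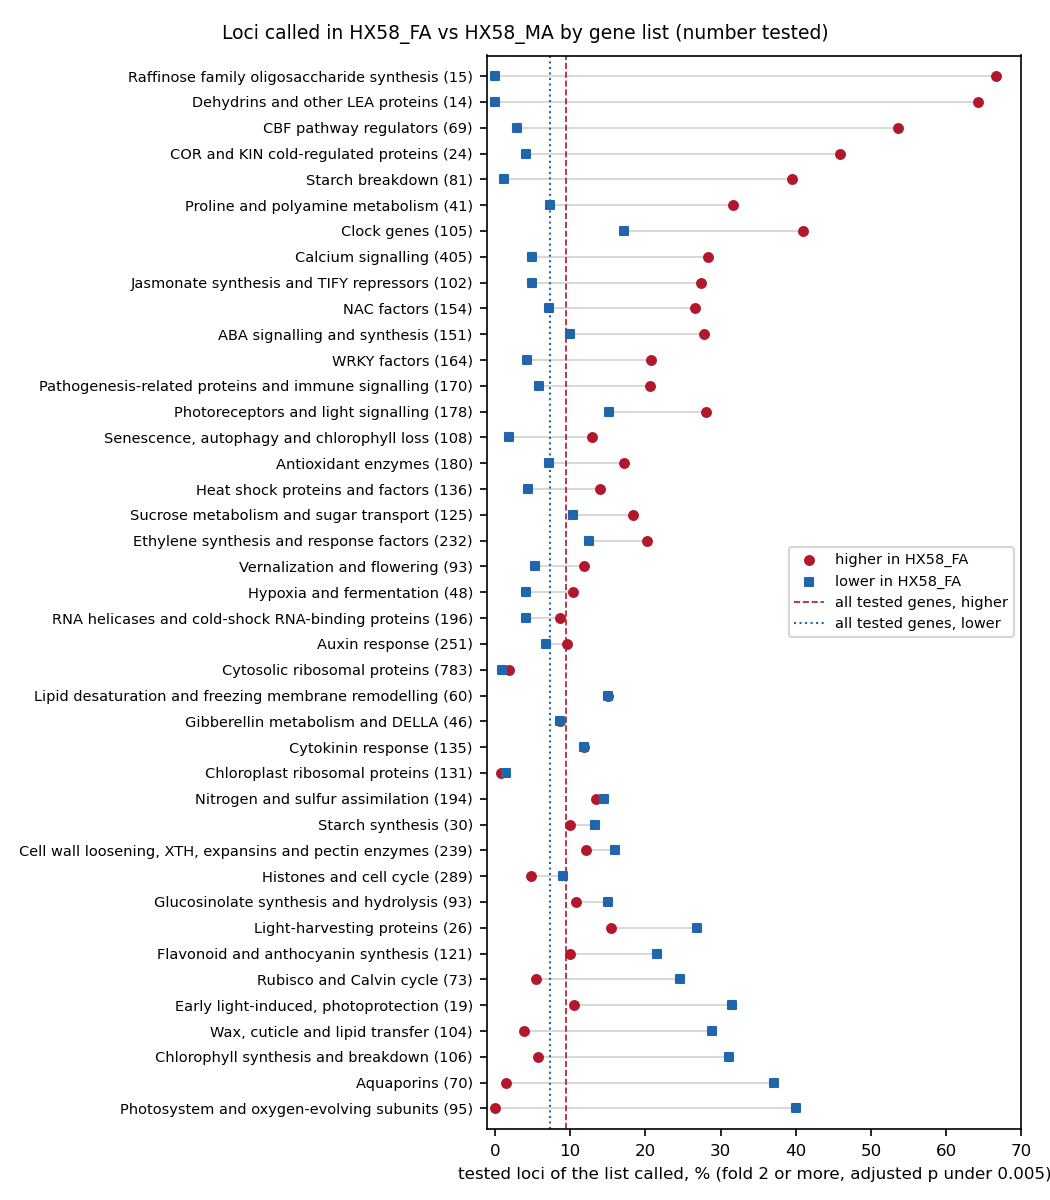
Share of the tested loci of each of 41 gene lists (rows, number tested in brackets) called higher (circles) or lower (squares) in HX58_FA vs HX58_MA. The dashed and dotted lines are the shares over all tested loci, 9.42% and 7.26%, and the lists run from raffinose synthesis at the top to photosystem subunits at the foot.

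Part of the photosystem loci fell, and 4 light-harvesting loci rose. Of 95 tested loci for subunits of the photosystems and the oxygen-evolving complex 38 were lower and 57 not called (median -0.84). 0 were higher in edgeR, 0 at an unadjusted p under 0.05 and 0 in DESeq2. Their share of counts was 3.04 to 3.40% in HX58_FA and 5.19 to 5.93% in HX58_MA. PSAF BnaCnng19490D, a photosystem I subunit that docks plastocyanin, fell from 293, 258 and 309 CPM to 27.4, 30.4 and 28.7 (-3.31 ± 0.16, adjusted p = 2.08e-06). The photosystem count of lower loci was 20, 23 and 17 without HX58_FA replicate 1, 2 and 3 in turn.

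Light-harvesting proteins had 4 of 26 tested loci higher and 7 lower, with a median of -0.14. The 4 that rose all matched LHCB1.3, an abundant antenna protein of photosystem II. LHCB1.3 BnaA04g20150D stood at 26361, 24772 and 24200.2 CPM against 7624, 6363 and 6129 (1.90 ± 0.17, adjusted p = 4.71e-05), and BnaC03g59520D at 12398, 12900.5 and 13462 against 5949, 4571 and 5326 (1.29 ± 0.17, adjusted p = 4.36e-04). The 9 LHCB1.3 loci ran from -0.21 to 1.90 on the log2 scale, so not all of them moved. The share of the whole list was 10.1 to 10.6% of counts in HX58_FA, against 6.64 to 7.41% in HX58_MA.

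Antenna proteins of photosystem I (LHCA) and the minor antenna protein LHCB5 fell at part of their loci. LHCA1 BnaA09g34720D went from 2430.3, 2491 and 2244 CPM to 462, 550.5 and 529 (-2.22 ± 0.16, adjusted p = 1.31e-05), LHCA4 was lower at 2 of 2 loci and LHCB5 at 3 of 4. CAB36 loci, named for a chlorophyll a-b binding protein of tobacco and outside the list for that reason, were among the largest losses in mean CPM. The locus BnaA09g02120D stood at 798, 990.4 and 1073 CPM in HX58_FA and 7358, 8124 and 5107 in HX58_MA (-2.85 ± 0.23, adjusted p = 2.26e-05), and BnaA02g29010D at 129, 153 and 155 against 2963, 3134 and 2379 (-4.28 ± 0.20, adjusted p = 1.66e-06).

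Carbon fixation fell at several of its abundant loci. Of 73 tested loci for rubisco and the Calvin cycle 18 were lower and 4 higher (median -0.36). The Calvin cycle count of higher loci was 1, 1, 2, 2 and 2 without HX58_FA replicate 1, 2 and 3 and HX58_MA replicate 1 and 3 in turn. The Calvin cycle count of lower loci was 10, 8 and 10 without HX58_FA replicate 1 and 3 and HX58_MA replicate 1 in turn. RCA BnaA03g18710D, the activase that keeps rubisco open, fell from 4354, 5570.1 and 3010.3 CPM to 426, 471 and 443 (-3.27 ± 0.24, adjusted p = 1.48e-05). FBA1 BnaA04g12130D, a plastid aldolase, fell from 2279, 2775 and 1604 CPM to 312, 379.8 and 339.6 (-2.69 ± 0.23, adjusted p = 3.05e-05), and all 3 FBA1 loci were called. RPI2 BnaA02g27010D, a ribose phosphate isomerase, was the list's locus with the largest rise, from 45.1, 43.7 and 32.7 CPM to 160.2, 223 and 199.97 (2.26 ± 0.20, adjusted p = 3.82e-05).

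Chlorophyll metabolism had 33 of 106 tested loci lower and 6 higher, with a median of -0.59. The chlorophyll count of higher loci was 3, 2, 2 and 2 without HX58_FA replicate 1, 2 and 3 and HX58_MA replicate 1 in turn. Among the loci that fell were the entry steps of the chlorophyll branch: GUN4 (4 of 4 loci), CHLH (2 of 2), both of the magnesium chelatase step, and CRD1 (4 of 4), the cyclase that follows. CHLH BnaA03g04440D stood at 255, 237 and 245 CPM against 1522, 1624 and 1164 (-2.55 ± 0.18, adjusted p = 1.17e-05). CAO BnaAnng19090D, which makes chlorophyll b, fell from 679, 1153 and 766 CPM to 83.5, 89.5 and 99.2 (-3.26 ± 0.23, adjusted p = 1.22e-05). Photoprotective loci had 2 higher and 6 lower of 19 (median -0.21), among them ELIP1 BnaA01g24440D, an early light-induced protein, at 130.4, 86.2 and 89.2 CPM against 29.2, 43.9 and 19.9 (1.72 ± 0.29, adjusted p = 0.0018), and ZEP BnaA07g12170D, zeaxanthin epoxidase, at 132, 151 and 133 against 474, 667 and 377 (-1.87 ± 0.22, adjusted p = 2.27e-04). The photoprotective count of higher loci was 1 each time without HX58_FA replicate 1, 2 and 3 and HX58_MA replicate 1 in turn. The photoprotective count of lower loci was 3 without HX58_FA replicate 3. In bulk leaves, fewer cells of a type and less RNA per cell cannot be told apart in any of these values.

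Clock genes changed in both directions. Of 105 tested clock loci 43 were higher and 18 lower, with a median of 0.85. Several genes that peak late in the day or towards evening in Arabidopsis were high: APRR1 (TOC1) at 3 of 3 loci with log2 fold changes of 7.78 to 8.07, APRR3 at 2 of 2, APRR5 at 5 of 6 and LUX at 4 of 8. LUX BnaA06g17950D, a part of the evening complex, stood at 25.3, 26.3 and 27.2 CPM in HX58_FA and at 0 in every HX58_MA sample, at least 1102-fold higher. The 8 LUX loci ran from -2.05 to 13.26, so the name covers loci that did not rise. Other evening genes were not called higher at most loci: ELF4 was called at 1 of 2, GI at 0 of 2 (-0.97 and -0.52) and BOA at 0 of 3 (-1.34, -0.99 and 0.26).

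Some genes that peak around dawn in Arabidopsis were low and others high. LHY BnaA10g00780D fell from 625, 1064 and 644 CPM to 84.3, 63.7 and 69.2 (-3.42 ± 0.26, adjusted p = 1.48e-05), and LHY was lower at 4 of 4, CCA1 at 2 of 2 and RVE8 at 3 of 3 tested loci. RVE8 BnaA05g28870D stood at 0.446, 0.572 and 0.354 CPM against 20.4, 32.4 and 16.4 (-5.64 ± 0.34, adjusted p = 4.88e-06). RVE1, of the same family and also of dawn phase, was higher at 4 of 6 loci, with log2 fold changes of 2.07 to 4.68 at those 4, RVE2 at 2 of 2 (5.06 and 6.24) and CDF1, a morning factor of flowering time, at 3 of 4. APRR9, a morning gene, fell at 4 of 4 loci, with BnaA04g26750D at 2.86, 8.77 and 6.99 CPM against 291, 333 and 272 (-5.59 ± 0.40, adjusted p = 1.27e-05). HX58_MA replicate 2 had the highest value of all 6 samples at each of the LHY, RVE8 and APRR9 loci given here. The hour of collection of the controls is not stated separately, and its part in these values was not tested.

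**Figure D3:**
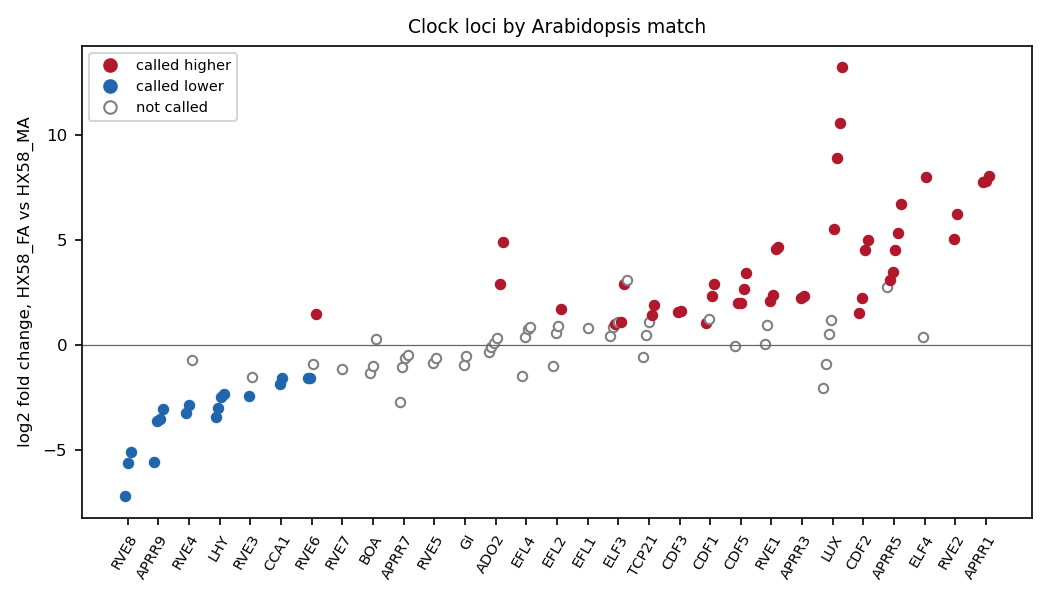
Log2 fold change of the 105 tested clock loci in HX58_FA vs HX58_MA, grouped by Arabidopsis match and ordered by median (filled points are called, open points are not). RVE8, APRR9, LHY and CCA1 loci lie below 0 and APRR1, APRR3, APRR5 and RVE2 loci above it.

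Photoreceptor and light signalling genes leaned to rises: of 178 tested loci 50 were higher and 27 lower (median 0.38). The CONSTANS-like factors COL6, COL9 and COL10 rose at 6 of 6, 5 of 5 and 4 of 4 loci. COL9 BnaA03g30130D, a repressor of flowering in Arabidopsis, stood at 3.91, 5.22 and 4.60 CPM against 0, 0.0216 and 0, the controls holding 1 count, and the ratio was 576 (95% counting interval 103 to 22768). HY5, the factor that promotes greening in light, fell at 3 of 4 loci, and BBX22 BnaC02g25060D, which works with it, from 4.30, 4.33 and 4.04 CPM to 0.161, 0 and 0.0221 (-5.99 ± 0.74, adjusted p = 2.87e-04). Flowering genes as a list lay near the background, with 11 higher and 5 lower of 93: TEM1, a flowering repressor, rose at 3 of 4 loci, FLC, the repressor that long cold silences, was called at 0 of 4 loci, with fitted log2 values of 0.27 to 1.03, the list's median being 0.26. The flowering count of lower loci was 1 and 0 without HX58_FA replicate 2 and 3 in turn.

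Abscisic acid (ABA), the hormone of water stress, showed changes in genes of its breakdown and its receptors. Of 151 tested loci 42 were higher and 15 lower (median 0.49). The ABA count of lower loci was 9, 9 and 8 without HX58_FA replicate 1, 2 and 3 in turn. CYP707A3, which inactivates ABA, rose at 6 of 6 loci: BnaA09g17560D stood at 82.9, 53.1 and 60.1 CPM against 0 in every control, at least 2777-fold higher, and BnaC09g18860D at 66.9, 81.2 and 76.1 CPM against 0.0870, 0.0865 and 0 (10.16 ± 0.40, adjusted p = 9.72e-07). The receptors PYL5 and PYL6 rose at 4 of 4 and 4 of 6 loci and PYL1 fell at 3 of 4, while the phosphatases that hold the pathway off fell in part, HAB1 at 2 of 2 loci and ABI1 at 3 of 7. In FPKM sums PYL1 was above PYL5 and PYL6 in every control (318, 349.6 and 219.6 against 7.59, 5.66 and 4.10 and 14.3, 9.38 and 6.50) and below both in every freezing sample (50.6, 43.4 and 41.3 against 56.0, 65.3 and 58.3 and 73.1, 101 and 70.2).

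Jasmonate genes rose at 28 of 102 tested loci and fell at 5 (median 0.77). The jasmonate count of higher loci was 18 and 16 without HX58_FA replicate 1 and 3 in turn. The jasmonate count of lower loci was 1, 1, 1, 2 and 3 without HX58_FA replicate 1, 2 and 3 and HX58_MA replicate 1 and 2 in turn. TIFY10A BnaC08g36840D, a JAZ repressor that the hormone itself induces, went from 0.0652, 0.281 and 0.206 CPM to 19.8, 47.9 and 41.4 (7.62 ± 0.51, adjusted p = 8.39e-06). LOX2 BnaC06g18870D, a lipoxygenase of jasmonate synthesis, rose from 7.30, 13.1 and 33.7 CPM to 172, 308 and 252 (3.76 ± 0.52, adjusted p = 5.74e-04). Against the other control group, HX58_MB, the log2 fold change of LOX2 was -0.26, the opposite direction.

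Lists of other hormones had medians closer to 0 than the jasmonate list, a difference that was not tested. Ethylene had 47 higher and 29 lower of 232 tested loci (median 0.37), auxin response 24 and 17 of 251 (0.03), cytokinin 16 and 16 of 135 (0.02) and gibberellin 4 and 4 of 46 (0.27). Over all tested loci 9.42% were higher and 7.26% lower. Auxin response, at 9.56% and 6.77%, and gibberellin, at 8.70% each way, lay near these shares. The ethylene count of higher loci was 30 without HX58_FA replicate 3. The ethylene count of lower loci was 16, 17, 13, 16 and 19 without HX58_FA replicate 1, 2 and 3 and HX58_MA replicate 1 and 2 in turn. The auxin count of higher loci was 14 each time without HX58_FA replicate 1 and 3 and HX58_MA replicate 1 in turn. The auxin count of lower loci was 10, 10, 8 and 8 without HX58_FA replicate 1, 2 and 3 and HX58_MA replicate 1 in turn. The cytokinin count of lower loci was 10 without HX58_FA replicate 3. The gibberellin count of higher loci was 2 each time without HX58_FA replicate 1, 2 and 3 in turn. The gibberellin count of lower loci was 1, 2 and 2 without HX58_FA replicate 1, 2 and 3 in turn. Within gibberellin metabolism, GA2OX6, which inactivates the hormone, rose at 3 of 3 loci. GA2OX6 BnaA10g01100D stood at 119.8, 102 and 111.3 CPM against 0, 0.0649 and 0, a ratio of 4675 (95% counting interval 1599 to 22669.7) to the 3 counts of the controls. GA3OX1 BnaA06g10250D, which makes the active form, went the other way, from 0.370, 2.77 and 1.89 CPM to 0.0357, 0 and 0. ERF109 BnaC03g66140D, an ethylene response factor of early stress, stood at 4.21, 6.83 and 7.32 CPM against 0 in every control, at least 253-fold higher.

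Calcium signalling, a large list, had 115 of 405 tested loci higher and 20 lower, with a median of 0.56. These were 28.4% and 4.94%, against 9.42% and 7.26% of all tested loci. Smaller lists had larger shares higher, such as raffinose synthesis at 66.7% and dehydrins and other LEA proteins at 64.3%. CML38 BnaC06g21690D, a calmodulin-like protein, stood at 14.8, 14.9 and 12.2 CPM against 0 in every control, at least 592-fold higher, and all 4 tested CML38 loci rose. CML49 BnaA01g31850D, a calcium-binding protein, went from 15.6, 14.5 and 13.9 CPM to 1677, 1391 and 1577, a 105-fold rise (6.72 ± 0.20, adjusted p = 5.91e-07). CBL1 and CML30 rose at 4 of 4 loci each, with log2 fold changes of 5.47 to 8.22 and 3.66 to 7.20. The calcium count of lower loci was 13, 12 and 12 without HX58_FA replicate 1, 2 and 3 in turn.

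Among transcription factor families, WRKY had 34 of 164 tested loci higher and 7 lower (median 0.75) and NAC 41 of 154 higher and 11 lower (0.75). WRKY40 and WRKY33, both regulators of defence and stress in Arabidopsis, rose at 5 of 5 and 6 of 6 loci. WRKY40 BnaC06g40170D stood at 811, 479 and 554 CPM in HX58_FA and 24.2, 30.98 and 12.1 in HX58_MA (4.78 ± 0.38, adjusted p = 2.18e-05). WRKY31 BnaC01g13500D stood at 42.3, 13.9 and 21.0 CPM against 0 in every control, at least 1108-fold higher, with replicate 1 the highest of the freezing samples by far. NAC69 BnaA09g51620D rose from 20.9, 21.6 and 10.04 CPM to 335, 252 and 267 (4.02 ± 0.31, adjusted p = 1.81e-05). The WRKY count of lower loci was 4, 3, 2, 4 and 3 without HX58_FA replicate 1, 2 and 3 and HX58_MA replicate 1 and 2 in turn. The NAC count of higher loci was 27 without HX58_FA replicate 3. The NAC count of lower loci was 6 and 5 without HX58_FA replicate 2 and 3 in turn.

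Stress and defence lists varied in their shares of called loci, with 10.4 to 20.6% higher and 1.85 to 7.22% lower. Over all tested loci the shares were 9.42% and 7.26%. Hypoxia and fermentation, at 10.4% higher, lay near the share of all loci, and so did antioxidant enzymes at 7.22% lower. Pathogenesis and immune signalling had 35 higher and 10 lower of 170 tested loci (median 0.03), antioxidant enzymes 31 and 13 of 180 (0.14), heat shock proteins and factors 19 and 6 of 136 (0.05), senescence and autophagy 14 and 2 of 108 (0.37), and hypoxia and fermentation 5 and 2 of 48 (0.39). The immune count of higher loci was 22 each time without HX58_FA replicate 3 and HX58_MA replicate 1 in turn. The immune count of lower loci was 5 each time without HX58_FA replicate 2 and 3 in turn. The antioxidant count of higher loci was 20, 20 and 18 without HX58_FA replicate 2 and 3 and HX58_MA replicate 1 in turn. The antioxidant count of lower loci was 7 without HX58_FA replicate 3. The heat shock count of lower loci was 3, 2 and 3 without HX58_FA replicate 1, 2 and 3 in turn. The senescence count of higher loci was 8, 9 and 7 without HX58_FA replicate 1, 2 and 3 in turn. The senescence count of lower loci was 1 each time without HX58_FA replicate 1, 2 and 3 and HX58_MA replicate 1 and 2 in turn. The hypoxia count of lower loci was 1 each time without HX58_FA replicate 1 and 2 in turn. Catalases parted: CAT3 rose at 4 of 6 loci, with sums of 1902, 2123 and 2122 FPKM in HX58_FA and 453, 547 and 385 in HX58_MA, and CAT2 fell at 4 of 8, with 414, 457 and 349.9 and 936, 1646 and 796. CAT3 was thus above CAT2 in every freezing sample and below it in every control. SAG12 BnaA07g13180D, a protease of senescing leaves, stood at 41.1, 30.9 and 28.1 CPM against 0.283, 0.0649 and 0.118 (7.70 ± 0.41, adjusted p = 2.59e-06), and it was the only SAG12 locus of 4 tested that was called.

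Loci of water channels and of the leaf surface fell more often than they rose, and most were not called. Of 70 tested aquaporin loci 26 were lower, 1 higher and 43 not called (median -1.29). PIP2-2, a water channel of the plasma membrane, fell at 8 of 8 loci and PIP2-1 at 3 of 3. PIP2-2 BnaA05g07300D stood at 52.0, 117 and 69.3 CPM in HX58_FA and 1142, 780.2 and 825 in HX58_MA (-3.53 ± 0.32, adjusted p = 4.63e-05), and the highest freezing value was below the lowest control value by a wide margin. Without HX58_MA replicate 2, the sample that stood apart, 36 aquaporin loci were lower. The aquaporin count of higher loci was 0 each time without HX58_FA replicate 1, 2 and 3 and HX58_MA replicate 2 and 3 in turn. The aquaporin count of lower loci was 16 and 17 without HX58_FA replicate 1 and 3 in turn.

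Wax, cuticle and lipid transfer genes had 30 of 104 tested loci lower, 4 higher and 70 not called, with a median of -1.48. CER1 BnaCnng09200D, which makes the alkanes of leaf wax, fell from 153, 137 and 359 CPM to 25.0, 33.5 and 41.3 (-2.70 ± 0.38, adjusted p = 6.03e-04). EARLI1 BnaA03g54590D, a lipid transfer-like protein, fell from 132, 49.7 and 101 CPM to 3.13, 3.22 and 2.72 (-4.96 ± 0.36, adjusted p = 1.29e-05), with HX58_MA replicate 2 the lowest control. Without HX58_MA replicate 2 there were 36 loci lower. The wax and cuticle count of lower loci was 18 each time without HX58_FA replicate 1, 2 and 3 in turn. Of the markers of epidermis and trichomes 4 of 15 tested were lower, and their median was -1.51. They took 0.00230 to 0.00269% of counts in HX58_FA against 0.00622 to 0.0113% in HX58_MA, and their part in the result was not tested. FDH, an epidermal enzyme of the cuticle, fell at 3 of 4 loci. It is in both the marker list and the wax list. Most of the lower marker loci were therefore wax list loci, and the markers are not a separate observation.

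Cell wall loosening genes changed in both directions. Of 239 tested loci 29 were higher and 38 lower (median -0.24). Among expansins, which loosen walls for growth, EXPA1 fell at 5 of 5 loci, with BnaC06g30760D (chromosome C06, 31423723 to 31424644) at 7.59, 8.88 and 6.55 CPM against 619, 333 and 726 (-6.19 ± 0.34, adjusted p = 3.09e-06), and EXPA10 BnaA09g29240D from 164, 48.6 and 192 CPM to 2.00, 1.72 and 2.66 (-5.99 ± 0.52, adjusted p = 3.66e-05). EXPA6, EXPA8 and EXPA16 each had 1 locus that rose. Xyloglucan enzymes went both ways: XTH22 rose at 5 of 5 loci, XTH23 at 2 of 2 and XTH18 at 3 of 4, whereas XTH6 fell at 2 of 2. HX58_MA replicate 2 held lower counts of these loci than the other HX58_MA samples, and without it 55 loci were lower. The list took 0.345 to 0.397% of counts in HX58_FA, 0.329 to 0.796% in HX58_MA and 0.275 to 0.283% in HX58_MB. The share in HX58_FA was thus above that in HX58_MB. The cell wall count of higher loci was 19 and 18 without HX58_FA replicate 1 and 3 in turn. The cell wall count of lower loci was 25, 23, 24 and 25 without HX58_FA replicate 1, 2 and 3 and HX58_MA replicate 1 in turn.

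**Figure D4:**
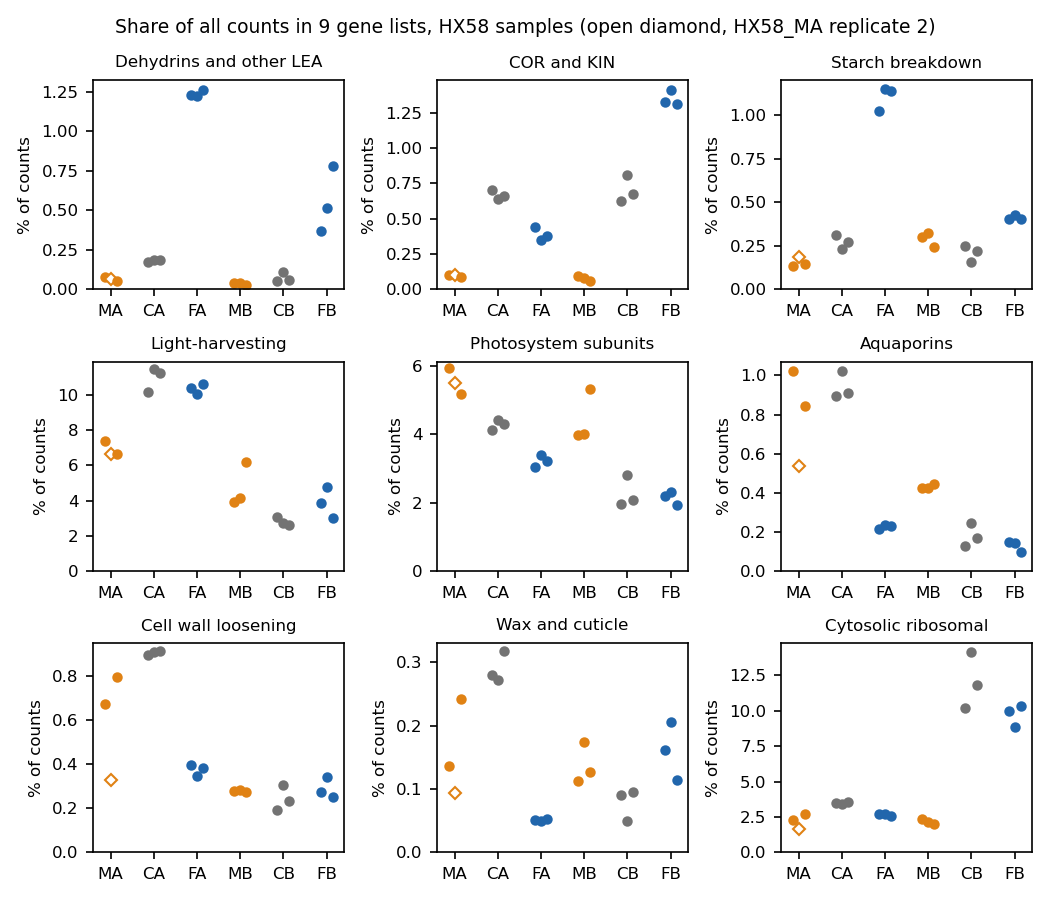
Share of all counts (%) taken by 9 gene lists in the 18 HX58 samples, by group. Dehydrins and other LEA proteins and starch breakdown are highest in HX58_FA and aquaporins are low in HX58_FA, HX58_CB and HX58_FB, and HX58_MA replicate 2 (open diamond) lies below the other HX58_MA samples in the aquaporin, cell wall and wax lists.

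Membrane lipid genes were balanced, with 9 of 60 tested loci higher and 9 lower (median 0.21). The lipid count of higher loci was 4, 5, 3 and 5 without HX58_FA replicate 1, 2 and 3 and HX58_MA replicate 1 in turn. FAD8, a plastid desaturase, fell at 2 of 2 loci: BnaC02g02240D stood at 2.75, 1.93 and 1.70 CPM against 35.4, 18.2 and 30.2 (-3.71 ± 0.31, adjusted p = 2.61e-05). ADS3 BnaA05g23690D, a palmitate desaturase of chloroplast lipids, fell from 729, 669.8 and 530.2 CPM to 129, 146 and 132 (-2.24 ± 0.18, adjusted p = 2.01e-05). PLDDELTA BnaC07g45790D, a phospholipase D tied to freezing tolerance in Arabidopsis, rose from 0.370, 1.02 and 1.00 CPM to 13.2, 6.23 and 9.25 (3.59 ± 0.43, adjusted p = 2.33e-04).

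Few loci of the protein synthesis machinery were called between these groups. Cytosolic ribosomal loci took 2.58 to 2.74% of counts in HX58_FA and 1.67 to 2.71% in HX58_MA. Chloroplast ribosomal loci took 0.891 to 0.978% in HX58_FA, and 1.39, 0.936 and 1.46% in HX58_MA replicates 1, 2 and 3. Of 783 tested loci for cytosolic ribosomal proteins 15 were higher and 7 lower (median 0.23), both shares below those of all tested loci, and of 131 for chloroplast ribosomal proteins 1 was higher and 2 were lower (median -0.41). The cytosolic ribosomal count of higher loci was 5, 4, 3 and 9 without HX58_FA replicate 1, 2 and 3 and HX58_MA replicate 2 in turn. The cytosolic ribosomal count of lower loci was 3 each time without HX58_FA replicate 1 and 3 in turn. The chloroplast ribosomal count of lower loci was 0, 0, 0, 1 and 11 without HX58_FA replicate 1, 2 and 3 and HX58_MA replicate 1 and 2 in turn. RNA helicases and cold-shock RNA-binding proteins had 17 higher and 8 lower of 196 (median 0.21). Their share higher, 8.67%, lay near the 9.42% of all tested loci. The RNA helicase count of higher loci was 6, 6, 4 and 8 without HX58_FA replicate 1, 2 and 3 and HX58_MA replicate 1 in turn. The RNA helicase count of lower loci was 4, 4 and 5 without HX58_FA replicate 1, 2 and 3 in turn. Within them the cold-shock protein CSP3 fell at 4 of 4 loci, with FPKM sums of 23.1, 26.3 and 25.0 in HX58_FA and 83.8, 80.9 and 91.4 in HX58_MA. Histones and cell cycle genes had 14 higher and 26 lower of 289 (median -0.07). The histone and cell cycle count of higher loci was 8 each time without HX58_FA replicate 1 and 3 in turn. The histone and cell cycle count of lower loci was 17 each time without HX58_FA replicate 1 and 3 in turn.

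Secondary metabolism and nutrient assimilation leaned to falls or to no side. Flavonoid synthesis had 12 higher and 26 lower of 121 tested loci (median -0.33), glucosinolates 10 and 14 of 93 (0.27), and nitrogen and sulfur assimilation 26 and 28 of 194 (0.01). The shares higher of flavonoids and glucosinolates, 9.92% and 10.8%, lay near the 9.42% of all tested loci. ESP BnaC06g06830D, the epithiospecifier protein that steers glucosinolate breakdown, rose from 4.15, 2.08 and 1.06 CPM to 26.2, 36.2 and 23.96 (3.55 ± 0.43, adjusted p = 2.56e-04). APS1 BnaA06g30310D, the entry enzyme of sulfate assimilation, rose from 1.85, 2.45 and 1.30 CPM to 14.1, 15.9 and 13.9 (2.96 ± 0.25, adjusted p = 3.11e-05). The flavonoid count of lower loci was 17 and 16 without HX58_FA replicate 1 and 3 in turn. The glucosinolate count of higher loci was 5, 6, 5 and 5 without HX58_FA replicate 1, 2 and 3 and HX58_MA replicate 1 in turn. The glucosinolate count of lower loci was 8 without HX58_FA replicate 3. The nitrogen and sulfur count of higher loci was 16, 15 and 15 without HX58_FA replicate 1, 2 and 3 in turn. The nitrogen and sulfur count of lower loci was 17, 18 and 18 without HX58_FA replicate 1, 2 and 3 in turn.

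HX58_FA against HX58_CA asks what 12 h at -4° rather than 4° adds after the same acclimation. Of 52248 tested loci 8339 (16.0%) were called, 4388 (8.40%) higher and 3951 (7.56%) lower in HX58_FA. Without HX58_FA replicate 3 the count was 5331. This comparison shares the HX58_FA samples with that against HX58_MA, so that the values are given side by side and not as a second line of evidence. CBF regulators were again high, with 33 of 67 tested loci higher and 4 lower, and so were dehydrins and other LEA proteins, with 9 of 12 higher and 0 lower in edgeR (0 at an unadjusted p under 0.05 and 0 in DESeq2). Levels over groups below are mean CPM ± SD of 3 samples, scaled over all 36 samples. DREB1B BnaCnng49280D stood at 317 ± 27.2 in HX58_FA, 5.45 ± 1.37 in HX58_CA and 0.149 ± 0.234 in HX58_MA, with a log2 fold change over HX58_CA of 5.86 ± 0.20 (adjusted p = 1.15e-07). LEA14 BnaCnng23520D stood at 2336 ± 98.4, 5.96 ± 2.21 and 8.28 ± 2.90 in the same order (8.62 ± 0.30, adjusted p = 1.26e-07). In HX17 this LEA14 locus was nearly absent, at 0.429, 0.466 and 0.159 CPM in HX17_FA and at 0 in every HX17_MA sample.

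COR and KIN loci mostly did not rise in this step. Of 23 tested loci 3 were higher and 8 lower in HX58_FA than in HX58_CA, and their share of counts was 0.637 to 0.699% in HX58_CA and 0.351 to 0.438% in HX58_FA. COR15B BnaC03g23750D was at 1574 ± 79.4 CPM in HX58_CA, 373 ± 18.5 in HX58_FA and 116 ± 19.5 in HX58_MA (-2.07 ± 0.09 for HX58_FA over HX58_CA, adjusted p = 4.78e-07). KIN2 BnaA02g02910D, also chosen after its values were seen and not called against HX58_MA, was at 1429 ± 81.1, 397 ± 56.6 and 233 ± 42.2 (-1.84 ± 0.12, adjusted p = 4.15e-06). Of the 3 groups, both loci had the highest mean in HX58_CA and the lowest in HX58_MA.

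Many growth and surface loci were lower after freezing than after chilling. Cell wall loosening had 11 of 246 tested loci higher and 89 lower in HX58_FA than in HX58_CA, wax and cuticle 4 and 53 of 104, and aquaporins 0 and 32 of 68, with 2 aquaporin loci higher at an unadjusted p under 0.05 and 1 in DESeq2. EXPA1 BnaC06g30760D was at 7.44 ± 1.20 CPM in HX58_FA against 581 ± 110.6 in HX58_CA and 567 ± 186 in HX58_MA (-6.28 ± 0.20 over HX58_CA, adjusted p = 9.15e-08). BAM3 BnaC01g21190D was at 1886 ± 244, 218 ± 33.8 and 80.5 ± 21.3 CPM in the same order (3.12 ± 0.15, adjusted p = 5.99e-07). LHCB1.3 BnaA04g20150D was high in both acclimated groups, with 24332 ± 1309 and 21478 ± 1003 against 6872 ± 848, and HX58_FA and HX58_CA were not called different at this locus. Cytosolic ribosomal proteins had 5 higher and 112 lower of 782 loci, and the epidermis and trichome markers 9 lower of 15, with 0.0171 to 0.0183% of counts in HX58_CA, and the part of the latter in these falls was not tested.

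**Figure D5:**
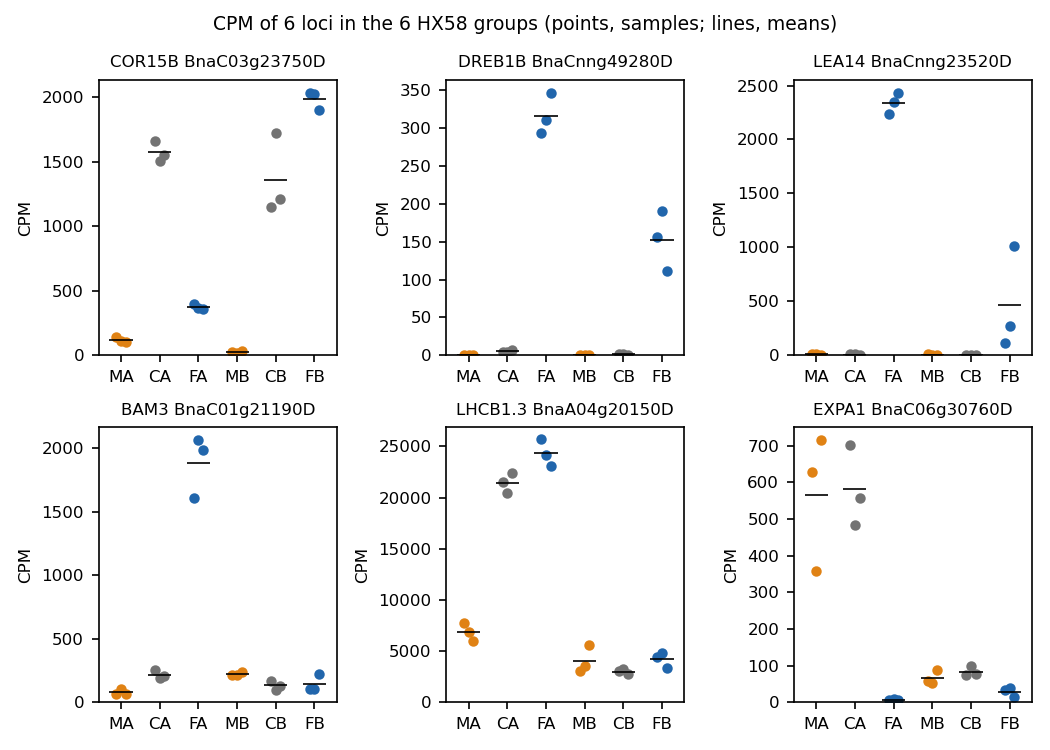
CPM of 6 loci in the 3 samples (points) of each HX58 group with the group mean (line): MA and MB are controls, CA and FA are 4° and -4° after acclimation, and CB and FB are 4° and -4° without it. COR15B is lower in FA than in CA and FB, LEA14 and BAM3 are highest in FA, and EXPA1 is near 0 in FA.

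The response of HX58 was tested against that of HX17 as the difference between HX58_FA vs HX58_MA and HX17_FA vs HX17_MA. Few loci passed: 135 of 58808 (0.230%), with 67 (0.114%) higher and 68 (0.116%) lower in the response of HX58. This count moved in both directions when single samples were left out. It was 60, 52 and 73 without HX58_FA replicate 1, 2 and 3, 74 without HX58_MA replicate 1, 67 without HX17_FA replicate 1, and 72 and 86 without HX17_MA replicate 1 and 3. SAUR32 BnaC02g44790D, of an auxin-induced family, rose in HX58 from 4.83, 6.14 and 4.04 CPM to 119.8, 140.1 and 144, while HX17 had 3.32 ± 1.15 in the control and 5.002 ± 1.69 after freezing (difference 4.12 ± 0.43 on the log2 scale, adjusted p = 6.28e-04). COR15B BnaC03g23750D rose less in HX58: HX17 went from 18.3 ± 4.94 to 317 ± 70.6 CPM, and the difference was -2.37 ± 0.34 (adjusted p = 0.003). The control of HX58 stood above that of HX17 at this locus, and the levels after freezing lay close together. KIN2 BnaA02g02910D gave -2.23 ± 0.32 (adjusted p = 0.0031). It went from 233 ± 42.2 to 397 ± 56.6 CPM in HX58 and from 60.3 ± 2.78 to 500 ± 131 in HX17, so the HX58 control was the higher here too. EARLI1 BnaA03g54590D, which fell in HX58, stood in HX17 at 49.0 ± 19.9 CPM in the control and 44.4 ± 19.03 after freezing (difference -4.82 ± 0.57, adjusted p = 0.001). Of the COR and KIN list 3 of 24 tested loci differed, all with a lower response in HX58. The level was not lower as a list: it took 0.351 to 0.438% of counts in HX58_FA and 0.202 to 0.303% in HX17_FA.

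The acclimated response was tested against freezing without acclimation as the difference between HX58_FA vs HX58_MA and HX58_FB vs HX58_MB. Of 58632 tested loci 7558 (12.9%) differed, 3358 (5.73%) with a higher and 4200 (7.16%) with a lower value in the acclimated response. The count was 4950 without HX58_FA replicate 3 and 4879 without HX58_MB replicate 1. This test uses the HX58_FA and HX58_MA samples again. The 2 responses have different controls, so a difference between HX58_MA and HX58_MB enters each value and was not separated from acclimation. Ribosomal proteins made the clearest block: 618 of 798 tested cytosolic loci and 65 of 135 chloroplast loci were lower, and cytosolic ribosomal loci took 2.58 to 2.74% of counts in HX58_FA and 1.67 to 2.71% in HX58_MA, but 8.83 to 10.3% in HX58_FB against 1.98 to 2.33% in HX58_MB. COR and KIN loci were lower at 12 of 26, and COR15B BnaC03g23750D reached 1986 ± 73.7 CPM in HX58_FB from 24.6 ± 10.3 in HX58_MB (difference -4.73 ± 0.38, adjusted p = 1.19e-05).

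Starch breakdown, light signalling and calcium signalling leaned the other way, with 21, 44 and 49 loci higher and 8, 10 and 6 lower of 84, 183 and 440. BAM3 BnaC01g21190D stood at 146 ± 66.5 CPM in HX58_FB and 222 ± 15.8 in HX58_MB (difference 5.08 ± 0.43, adjusted p = 1.64e-05). SAUR66 BnaA06g14420D, of an auxin-induced family, was at 14.2, 18.4 and 9.52 CPM in HX58_FA against 0, 0.303 and 0 in HX58_MA, and at 0.0614 ± 0.0726 in HX58_FB against 0.745 ± 0.138 in HX58_MB (difference 10.34 ± 1.16, adjusted p = 6.46e-05). EXPA10 BnaA09g29240D, which was lower in HX58_FA than in HX58_MA, stood at 13.4 ± 3.42 CPM in HX58_MB and 33.4 ± 3.01 in HX58_FB (difference -7.45 ± 0.58, adjusted p = 9.37e-06). The control means differed as well, with 136 ± 73.6 in HX58_MA. The DREB1B locus BnaCnng49280D was at 152 ± 39.9 in HX58_FB and was not called different between the responses. For dehydrins and other LEA proteins 0 of 14 loci were called different in either direction in edgeR, with 0 higher and 1 lower at an unadjusted p under 0.05 and 0 and 1 in DESeq2.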

How the data were processed

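Leaf RNA-seq was deposited as counts per gene, which the authors made with HISAT2 2.0.4 and HTSeq 0.9.1 (submitters' processing notes), and as FPKM per gene, which the authors scaled for gene length and depth. Genome version: not given in the sources used here. Strand setting of the counting: not stated either. The deposited fold changes, p-values and calls of the authors' own comparisons were not used, nor were 24 columns of group mean counts. Loci were kept with edgeR's filterByExpr (minimum count 10, minimum total 15), scaled by TMM and tested with edgeR 4.0.16 in R 4.3.3 (quasi-likelihood test, Benjamini-Hochberg adjustment, called at a fold of 2 and an adjusted p under 0.005). The SE is the absolute log2 fold change divided by the root of the F value. DESeq2 1.42.0, RLE scaling, other filters, thinned counts, HX58_MB as control, a replicate block and leaving out each sample were alternatives. Tables and figures used Python 3.11.15, numpy 2.4.6, pandas 2.3.3 and matplotlib 3.10.9. Code was tested on simulated data. The smallest of the 6 totals was 3.22e+07 counts, and the p-values measure the spread between these samples, which may be partly technical.

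The comparison and the gene lists were chosen with earlier results of these data known. Lists were matched by protein name (10236 pairs of list and gene, 229 left out as another family). Named loci are the 12 with the largest fitted rises and the 12 with the largest falls (mean CPM of 5 or more, Arabidopsis match, no overlap), the 10 and 10 with the largest CPM gains and losses, each list's most abundant member and largest called rise and fall, and the 3 largest differences in either direction in each of 3 further tests. No sequence is printed, since no table of promoters or proteins was used here.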

Additional observations from a re-analysis of the deposited data

Results flagged for a closer look

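Several of the loci described above responded differently in the other variety or without acclimation, by an interaction term in edgeR's quasi-likelihood test with Benjamini-Hochberg adjustment. Values are log2 differences of the response ± SE. In the test of acclimation a difference between the controls HX58_MA and HX58_MB enters each value and was not separated from acclimation. EXPA1 BnaC06g30760D, for example, was at 629, 358 and 715 CPM in HX58_MA and 58.9, 53.1 and 87.8 in HX58_MB. BAM3 BnaC01g21190D was at 67.5, 105 and 68.8 CPM in HX58_MA and 214, 212 and 240 in HX58_MB. Where a response of HX58 was compared with that of HX17, the difference (HX58 minus HX17) was -2.23 ± 0.32 for KIN2 BnaA02g02910D, -4.82 ± 0.57 for EARLI1 BnaA03g54590D, 4.12 ± 0.43 for SAUR32 BnaC02g44790D, -2.37 ± 0.34 for COR15B BnaC03g23750D and 5.63 ± 0.66 for CYP707A3 BnaC09g18860D, with adjusted p from 6.28e-04 to 0.0031.

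Where the acclimated response of HX58 was compared with the response without acclimation, the difference (acclimated minus not acclimated) was above 0 at 16 loci: 1.76 ± 0.36 for CML49 BnaA01g31850D, 2.41 ± 0.37 for SPS4 BnaA02g23460D, 1.81 ± 0.28 for RPI2 BnaA02g27010D, 8.92 ± 1.501 for SAMDC3 BnaA03g05780D, 3.28 ± 0.40 for BAM3 BnaA03g42940D, 1.85 ± 0.41 for PIP2-2 BnaA05g07300D, 3.90 ± 0.49 for BAM6 BnaA05g10780D, 10.34 ± 1.16 for SAUR66 BnaA06g14420D, 2.92 ± 0.37 for APS1 BnaA06g30310D, 2.48 ± 0.41 for LHY BnaA10g00780D, 5.08 ± 0.43 for BAM3 BnaC01g21190D, 3.92 ± 0.27 for SAUR32 BnaC02g44790D, 4.11 ± 0.84 for HSFC1 BnaC03g43990D, 7.68 ± 1.43 for LOX2 BnaC06g18870D, 4.54 ± 0.60 for POX1 BnaC07g26120D and 4.06 ± 0.86 for CYP707A3 BnaC09g18860D, with adjusted p from 7.41e-06 to 0.0044.

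It was below 0 at 11 loci: -2.52 ± 0.31 for KIN2 BnaA02g02910D, -2.57 ± 0.40 for CAB36 BnaA02g29010D, -2.34 ± 0.51 for APRR9 BnaA04g26750D, -1.59 ± 0.35 for ZEP BnaA07g12170D, -7.45 ± 0.58 for EXPA10 BnaA09g29240D, -3.67 ± 0.39 for ARR9 BnaA09g36380D, -3.45 ± 0.61 for FAD8 BnaC02g02240D, -3.94 ± 0.81 for BBX22 BnaC02g25060D, -4.73 ± 0.38 for COR15B BnaC03g23750D, -5.13 ± 0.53 for EXPA1 BnaC06g30760D and -3.28 ± 0.58 for CER1 BnaCnng09200D, with adjusted p from 9.37e-06 to 0.004.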

How the results depend on the processing

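The count of called loci in HX58_FA vs HX58_MA was 12774 with DESeq2, 9034 with RLE scaling, 10550 with no filter, 8952 in a model of all 36 samples, 8982 with thinned counts, 11168 with HX58_MB as the control and 8820 with both controls. Of the 9010 loci called against HX58_MA, 6412 were also called with HX58_MB as the control. Called in the same direction were 3766 of the 5088 higher loci and 2643 of the 3922 lower loci. DESeq2 called 6109 loci lower. When an adjusted p below 0.05 was the whole call rule, 19723 loci were called, 10471 higher and 9252 lower, and the counts were 19472 for HX58_FA vs HX58_CA, 1593 for the variety difference and 18059 for the acclimation difference. The variety difference held 1566 loci in DESeq2, 440 with no filter and 294 in the model of all 36 samples, and the acclimation difference held 11899 in DESeq2. With 1 sample left out the ranges were 5157 to 8740 called, 3132 to 4904 higher and 2025 to 3997 lower for HX58_FA vs HX58_MA, 5331 to 7625 for HX58_FA vs HX58_CA, 52 to 187 for the variety difference and 4879 to 8533 for the acclimation difference. The fits with 1 sample left out had fewer samples, and the cause of the other shifts was not tested.

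Of 1462 values of the 163 named loci under alternatives with all samples, 1378 kept their direction and their side of the threshold, 64 were no longer called, 15 became called and 5 changed sign. With HX58_MB as control the log2 fold change was 0.62 for GASA6 BnaAnng38970D, 0.63 for At5g59910 BnaC04g39940D, 0.045 for PP2CA BnaC05g41830D and -0.26 for LOX2 BnaC06g18870D, and with both controls it was 0.052 for At5g59910 BnaC04g39940D. Without HX58_MA replicate 2 it was 0.25 for SPS4 BnaA02g23460D and 0.092 for GLU1 BnaA10g26060D, and the values with 1 sample left out ran from -0.36 and -0.33, respectively, up to these. Of 1230 list counts, 938 stayed within 1.5 times. Replicate numbers did not pair the samples: deviations of same-numbered HX58_FA and HX58_MA samples correlated at -0.084 to 0.137. With the replicate block 8150 loci were called in HX58_FA vs HX58_MA, 7299 in HX58_FA vs HX58_CA, 96 in the variety difference and 6295 in the acclimation difference.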
